A study of Rattus norvegicus with 10 samples.

Results

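The testis-specific serine kinases, Tssk1b, Tssk2, Tssk3, Tssk4 and Tssk6, were followed as a family in the messenger RNA of round spermatids, the haploid cells that leave meiosis and begin to build the sperm head and tail. Members were taken by gene name alone, and all 5 were found among the 32545 genes of the files. Per the series title and labels, the cells came from wild-type Brown Norway rats, an aged group of 18 to 20 months (5 samples) and a young group of 4 to 6 months (5 samples), kept with free access to food and water and given no other treatment that the labels name. The cells were separated from other germ cells by STA-PUT, a sedimentation method, and nothing in the labels ties a sample to an animal, so the p-values speak of the spread between samples, which may be technical.

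These kinases are made almost only in the testis, where they act after meiosis on proteins of the sperm head, midpiece and tail. In mice, Tssk1 and Tssk2 phosphorylate the substrate protein Tsks, and males lacking both kinases are infertile. Mouse Tssk6 is needed for chromatin compaction in late spermatids and for male fertility, mouse Tssk4 phosphorylates the tail protein Odf2, and mouse Tssk3 is also needed for male fertility.

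All 5 kinase mRNAs were abundant in round spermatids of both ages. Levels are in FPKM, fragment counts scaled by gene length and library size, so genes of different length can be set side by side. Over the 10 libraries the means were 301 ± 27.3 FPKM for Tssk1b, 301 ± 66.5 for Tssk6, 255 ± 24.8 for Tssk2, 166 ± 16.5 for Tssk3 and 134 ± 12.5 for Tssk4 (SD, n = 10). By mean level Tssk6 and Tssk1b ranked 305 and 306 among the 32545 genes, and Tssk4, the lowest member, ranked 891. The order held from library to library at its lower end: Tssk3 was the fourth and Tssk4 the fifth member in 10 of 10 libraries. Tssk1b exceeded Tssk2 in 10 of 10 libraries. Tssk6 and Tssk1b could not be ordered, as Tssk1b was the higher in 6 libraries and Tssk6 in 4. Summed over the family, the level was 1148 ± 69.4 FPKM in aged and 1165 ± 155 FPKM in young libraries (SD, n = 5 each).

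Spermatid genes were abundant in both groups, and the highest sums of somatic testis cell transcripts came from aged replicates 1 and 2. Recovered depth was 15992576 to 18203223 fragments per aged library and 14488222 to 17401744 per young library. All 20 listed round spermatid genes, chiefly of the acrosome, were detected, with a summed level of 3819 to 4375 FPKM in aged and 3464 to 4154 FPKM in young libraries. Genes of spermatocytes, the cells in meiosis, summed to 1596 to 1853 FPKM in aged and 1665 to 1808 FPKM in young libraries. Of 17 tested spermatocyte genes, 2 were higher and 15 lower in aged libraries. Late spermatid genes were higher for 2 and lower for 16 of 18, and round spermatid genes higher for 14 and lower for 6 of 20. Of all 12985 genes tested, 5902 were higher and 7083 lower in aged libraries. With an unadjusted limma p under 0.05, 4 spermatocyte genes and 1 late spermatid gene were lower, and 1 round spermatid gene was higher. Over all genes tested, 6.35% were lower and 5.54% higher at that p. Of the 13 tested peritubular genes, from the contractile wall of the tubule, 12 were higher in aged libraries, with sums over all 15 listed of 114 to 292 FPKM in aged and 74.4 to 111 FPKM in young libraries. Leydig cell genes, 7 in the files, summed to 10.8 to 120 FPKM in aged and 5.13 to 8.28 FPKM in young libraries, and 12 of 14 tested macrophage genes were higher and 2 lower in aged libraries. With an unadjusted limma p under 0.05, 8 macrophage genes were higher and 2 lower, against 5.54% higher and 6.35% lower over all genes tested. At that p, 8 of 13 peritubular, 2 of 3 Leydig, 2 of 7 Sertoli and 1 of 4 endothelial genes were higher and 0 lower. Groups did not overlap for 7 peritubular, 2 Leydig, 1 Sertoli, 1 endothelial and 0 macrophage genes tested, against 2.6% of all genes tested. Only genes averaging 1 FPKM or more over the 10 libraries were tested, 3 of 7 for the Leydig list. Low somatic genes could thus enter through the aged libraries where they were high, so these shares are descriptions. The 15 macrophage genes in the files summed to 52.7 to 423 FPKM in aged and 33.6 to 66.8 FPKM in young libraries, and the 15 Sertoli cell genes in the files summed to 100.05 to 203 FPKM in aged and 95.3 to 102 FPKM in young libraries. Endothelial genes, 8 in the files, summed to 15.7 to 20.7 FPKM in aged and 14.0 to 16.03 FPKM in young libraries, with Cldn5 listed at 0 throughout, and of 4 tested 2 were higher and 2 lower in aged libraries. Aged replicate 2 was the highest library for each of these 5 somatic lists. Without aged replicates 1 and 2, the highest aged sum was 16.8 FPKM for Leydig, 113 for Sertoli, 137 for peritubular and 17.7 for endothelial genes, and 66.3 for macrophage genes, which is under the young maximum. Their part in the kinase values was not tested, and differences without aged replicates 1 and 2 are given below.

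No kinase of the family passed the test between aged and young round spermatids. Differences are on the log2(FPKM + 1) scale, aged minus young, from limma fitted over the 12985 genes averaging 1 FPKM or more, and the threshold is an adjusted p of 0.05 (Benjamini-Hochberg). Of the 5 members 0 passed, against 0.0% of all genes tested, and 0 of 5 had an unadjusted p under 0.05, against 11.9% of all genes tested (5.54% higher and 6.35% lower in aged libraries). With voom, limma's method for counts, on the recovered fragments, 0 of 5 passed and 1, Tssk4, had an unadjusted p under 0.05. Of 19 alternatives, the unadjusted p was under 0.05 in 5 for Tssk4, in 1 each for Tssk1b, Tssk3 and Tssk6, and in 0 for Tssk2, and 0 passed after adjustment. The groups overlapped for all 5 members, while they did not overlap for 2.6% of all genes tested. The members' median difference was 0.03, beside -0.02 over all genes tested. In aged libraries 4 members were higher and 1 lower, beside 5902 higher and 7083 lower among all genes tested. In bulk RNA of this kind, fewer cells of a type and less RNA per cell cannot be told apart.

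**Figure D1:**
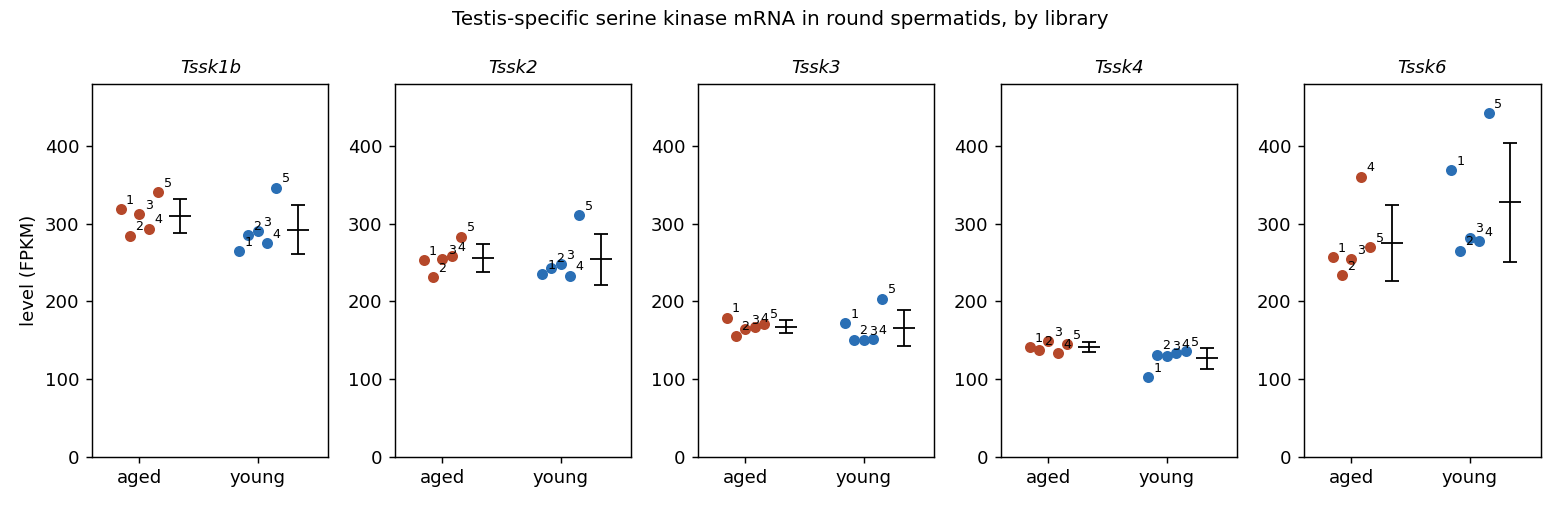
Level of each kinase (FPKM, linear axis from 0) in the 5 aged and 5 young libraries; points are libraries with their replicate numbers, and the bar beside each group is the mean ± SD. The groups overlap in every panel, and Tssk6 spreads most, between 233 and 442 FPKM.

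Tssk4 had the smallest unadjusted p of the family, with levels mostly higher in aged libraries. It stood at 141, 137, 149, 133 and 145 FPKM in aged replicates 1 to 5, and at 102, 131, 130.1, 133 and 136 FPKM in young replicates 1 to 5. Thus 4 of the 5 aged libraries lay above the highest young library, and young replicate 1 stood well below every other library. The means were 141 ± 6.11 FPKM in aged and 127 ± 13.7 FPKM in young libraries (SD, n = 5 each), a log2 difference of 0.16 (SE 0.07, 95% interval -0.0015 to 0.32) with a limma p of 0.0518, adjusted to 0.424. An exact permutation test of this single gene gave p = 0.0238, two-sided and not corrected for the other genes, where the smallest possible p is 0.0079. The same permutation test gave p = 0.317 for Tssk1b, 0.857 for Tssk2, 0.817 for Tssk3 and 0.183 for Tssk6. The size of the Tssk4 difference rested in part on 1 library: without young replicate 1 it was 0.09 (SE 0.04, limma adjusted p = 0.576). Without aged replicates 1 and 2, the libraries richest in somatic transcripts, it was 0.17.

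Tssk6 varied most among libraries, within both ages. It stood at 256, 233, 254, 360.0 and 269.8 FPKM in aged replicates 1 to 5, and at 369, 265, 282, 277 and 442 FPKM in young replicates 1 to 5. High values occurred in 1 aged and 2 young libraries, with the remaining 7 libraries between 233 and 282 FPKM, and 3 aged libraries lay below the lowest young one. Aged libraries averaged 275 ± 49.4 FPKM and young libraries 327 ± 76.3 FPKM (SD, n = 5 each), a log2 difference of -0.24 (SE 0.15, 95% interval -0.58 to 0.10; limma adjusted p = 0.522). The interval spans from a level 0.671 times the young one to 1.07 times. The value leaned on a few libraries: leaving out young replicate 5 gave -0.12, leaving out aged replicate 4 gave -0.34, and it was -0.02 without both young replicates 1 and 5, a choice made after the values were seen. Without aged replicates 1 and 2 it was -0.14.

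Tssk1b, Tssk2 and Tssk3 showed small differences with intervals on both sides of 0. Tssk1b stood at 319, 284, 312, 293 and 340.1 FPKM in aged replicates 1 to 5, and at 264, 285, 290.05, 275 and 346 FPKM in young replicates 1 to 5. The highest and the lowest library were both young. Means were 309.7 ± 21.9 FPKM in aged and 292 ± 31.6 FPKM in young libraries (SD, n = 5 each), a log2 difference of 0.09 (SE 0.07, 95% interval -0.07 to 0.25; limma adjusted p = 0.617). It was 0.15 without young replicate 5, and 0.11 without both aged replicates 1 and 2.

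Tssk2 stood at 252.4, 231, 254, 258 and 283 FPKM in aged replicates 1 to 5, and at 235, 243, 248, 233 and 310.5 FPKM in young replicates 1 to 5. All libraries but aged replicate 5 and young replicate 5 were within 231 to 258 FPKM. The log2 difference was 0.02 (SE 0.08, 95% interval -0.16 to 0.19; limma adjusted p = 0.939), from means of 256 ± 18.4 FPKM in aged and 254 ± 32.3 FPKM in young libraries (SD, n = 5 each). Tssk3 stood at 179, 156, 164, 167 and 171 FPKM in aged replicates 1 to 5, and at 171, 150.3, 149.9, 151 and 203 FPKM in young replicates 1 to 5. The 3 lowest libraries were thus young, and young replicate 5 was the highest. The log2 difference of Tssk3 was 0.03 (SE 0.08, 95% interval -0.16 to 0.21; limma adjusted p = 0.905), from means of 167 ± 8.70 FPKM in aged and 165 ± 23.2 FPKM in young libraries (SD, n = 5 each). The directions for Tssk2 and Tssk3 each turned without 1 of 3 single libraries. Without both young replicates 1 and 5 the Tssk3 difference was 0.15 (SE 0.05, limma adjusted p = 0.367) and that of Tssk2 0.08. Without both aged replicates 1 and 2 the Tssk3 difference was 0.03 and that of Tssk2 0.07.

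Tssk6 had the largest coefficient of variation of the 5 kinases at both ages. Each member was covered by 2380 (Tssk4) to 8880 (Tssk6) recovered fragments per library, for which counting alone gives a Poisson coefficient of variation of 1.14% (Tssk2) to 1.81% (Tssk4). The observed coefficient of variation in aged libraries was 18.0% for Tssk6, 7.21% for Tssk2, 7.08% for Tssk1b, 5.20% for Tssk3 and 4.34% for Tssk4. In young libraries it was 23.3% for Tssk6, 14.0% for Tssk3, 12.7% for Tssk2, 10.8% for Tssk1b and 10.8% for Tssk4. It was larger in young libraries for 5 of 5 members, and for 50.3% of the 1231 tested genes averaging 100 FPKM or more. Single libraries carried this. Without young replicate 5 it was larger in young libraries for 2 of 5 members and 33.5% of those genes, as the young value was then 15.9% for Tssk6, 4.04% for Tssk1b and 2.94% for Tssk2. Without young replicate 1 the young value of Tssk4 was 1.88%, and 4 of 5 members and 37.5% of those genes were more variable in young libraries; both were added after seeing the data. With all libraries, among those genes, 1.06% had a larger coefficient of variation than Tssk6 in young libraries and 2.03% in aged libraries. Young replicate 5 held the highest value of 4 members and young replicate 1 the lowest of Tssk1b and Tssk4.

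**Figure D2:**
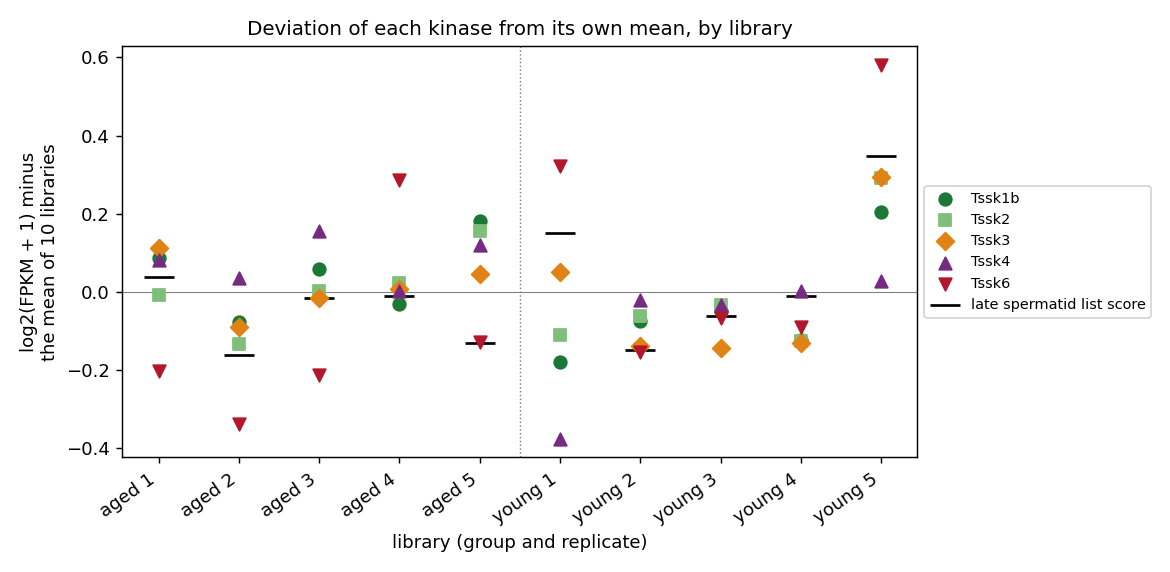
Deviation of each kinase from its own mean over 10 libraries (log2(FPKM + 1) scale) in the aged libraries, left, and the young libraries, right; the black bar is the mean deviation of 18 late spermatid genes. Tssk6 lies far above 0 in aged replicate 4 and young replicates 1 and 5, while Tssk4 lies far below 0 in young replicate 1.

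Tssk1b and Tssk2 moved together most closely, while Tssk4 and Tssk6 tended in opposite directions. Across the 10 libraries, Pearson's r on the log2 scale was 0.90 between Tssk1b and Tssk2 (Spearman's rho 0.90), and 0.94 for their deviations from the group means. It was 0.78 between Tssk2 and Tssk3 and 0.69 between Tssk1b and Tssk3. Tssk6 had r = 0.15 with Tssk1b, 0.53 with Tssk2, 0.65 with Tssk3 and -0.46 with Tssk4. For deviations from the group means these were 0.36, 0.62, 0.77 and -0.29. Tssk4 had r = 0.66 with Tssk1b, 0.37 with Tssk2 and 0.03 with Tssk3. Values of 1 library share its depth, cell mix and RNA, so these coefficients are descriptions and carry no test.

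Ratios within a library, which do not depend on the scaling between libraries, showed the same contrast. The ratio of Tssk1b to Tssk2 lay between 1.11 in young replicate 5 and 1.26 in aged replicate 1, a range of 1.13-fold. The ratio of Tssk4 to Tssk6 lay between 0.278 in young replicate 1 and 0.585 in aged replicate 2, a range of 2.11-fold. The Tssk1b to Tssk2 ratio averaged 1.21 ± 0.0466 in aged and 1.15 ± 0.0307 in young libraries (SD, n = 5 each). Its log2 difference was 0.07, with p = 0.0556 by the exact two-sided permutation test, and the groups overlapped. Aged replicate 4 decided on which side of 0.05 this fell: without it the difference was 0.09 and the exact permutation p = 0.0079, the smallest it can give. Without both aged replicates 1 and 2 it was 0.04 (exact permutation p = 0.232).

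**Figure D3:**
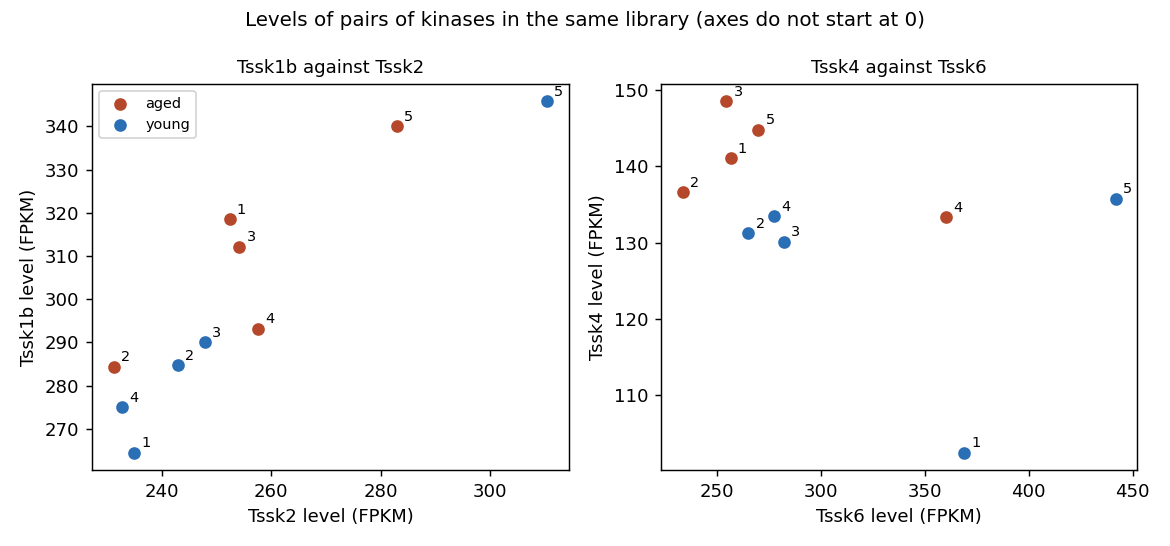
Tssk1b against Tssk2 (left) and Tssk4 against Tssk6 (right), in FPKM, 1 point per library with its replicate number; axes do not start at 0. Tssk1b and Tssk2 rise together over the libraries (r = 0.90), whereas Tssk4 and Tssk6 do not (r = -0.46).

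Tssk1b and Tssk2 are also neighbours in the genome. In the files' coordinates, for which the sources used here name no build, Tssk1b (ENSRNOG00000032856) lies on chromosome 11 from 87239412 to 87240833 and Tssk2 (ENSRNOG00000037997) from 87221613 to 87236445, both on the minus strand and 2966 bp apart. The annotated length of Tssk1b, 1422 bp, equals its span, as for a gene of a single exon. The span of Tssk2 holds the whole of Dgcr14 on the opposite strand and overlaps Gsc2 there by 994 bp. Dgcr14, a nuclear protein gene, averaged 38.7 ± 2.47 FPKM in aged and 36.6 ± 1.68 FPKM in young libraries, and Gsc2, a homeobox gene, 0.940 ± 0.155 FPKM in aged and 1.70 ± 0.380 FPKM in young libraries (SD, n = 5 each). Since the strand setting of the counting is not given, fragments in these overlaps cannot be assigned with certainty.

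The sequences before the starts of this pair are shown because their levels moved together most closely within the family. Tssk6, the most variable member, is shown beside them. Outside the family, r was higher still, at 0.99 for Tssk1b with Actl7a and 0.97 for Tssk2 with Spata24. The sequences come from RefSeq on build GRCr8, 250 bases before to 50 after the start. All 5 members matched by symbol. Capitals mark TGACTTCA or its reverse complement TGAAGTCA in Tssk1b (chr11:96596590-96596889, minus strand) and Tssk2 (chr11:96592170-96592469, minus strand), and TGACG in Tssk6 (chr16:19559869-19560168, minus strand).
Tssk1b: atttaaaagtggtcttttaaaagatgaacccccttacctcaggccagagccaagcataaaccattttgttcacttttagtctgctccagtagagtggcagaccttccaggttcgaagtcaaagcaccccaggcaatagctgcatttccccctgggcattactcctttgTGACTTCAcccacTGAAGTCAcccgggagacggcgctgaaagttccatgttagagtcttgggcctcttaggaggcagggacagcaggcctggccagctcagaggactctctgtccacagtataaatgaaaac
Tssk2: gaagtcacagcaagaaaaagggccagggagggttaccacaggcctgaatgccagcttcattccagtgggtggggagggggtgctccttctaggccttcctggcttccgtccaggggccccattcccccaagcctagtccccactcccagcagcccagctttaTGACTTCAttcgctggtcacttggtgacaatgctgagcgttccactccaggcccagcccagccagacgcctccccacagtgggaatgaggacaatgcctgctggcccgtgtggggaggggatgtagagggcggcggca
Tssk6: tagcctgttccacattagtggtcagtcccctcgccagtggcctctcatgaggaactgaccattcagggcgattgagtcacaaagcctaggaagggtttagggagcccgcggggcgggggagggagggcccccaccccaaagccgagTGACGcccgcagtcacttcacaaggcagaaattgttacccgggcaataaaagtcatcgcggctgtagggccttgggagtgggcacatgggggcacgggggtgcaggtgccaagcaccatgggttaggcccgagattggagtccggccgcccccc
TGACTTCA resembles TGACGTCA, the palindromic cyclic AMP response element to which the spermatid factor Crem binds. TGACTTCA was searched after the letters of these windows had been read, so its presence is a description. On either strand it was found in 2 of the 5 kinase windows, and in 1.73% of 33365 RefSeq windows of the same length. Tssk1b held it on both strands, with first bases 82 and 69 bases before the start, and 0.051% of windows held 2 or more matches. In Tssk2 the match began 88 bases before the start. The full element TGACGTCA was in 0 of 5 windows and in 1.83% of all, and the shorter TGACG, which it contains, was in Tssk6 alone among the 5 and in 21.2% of all. A TATAAA was found in the Tssk1b window only, 37 bases after the annotated start, against 14.2% of all windows, and the windows of Tssk3 and Tssk4 held none of the motifs so far named. GGGCGG was in the windows of Tssk2, Tssk3 and Tssk6 and in 33.1% of all, and CCAAT in those of Tssk3 and Tssk6 and in 37.5% of all, either strand. The absence of these letters from a window says nothing of whether a factor acts there.

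The other members lie on other chromosomes. Tssk3 (ENSRNOG00000008693) spans 147690239 to 147691997 of chromosome 5, minus strand, and starts 393 bp from Fam229a, which runs the other way and averaged 307 ± 31.8 FPKM in aged and 279 ± 38.1 FPKM in young libraries (SD, n = 5 each). Tssk4 (ENSRNOG00000019789) spans 34328851 to 34331187 of chromosome 15, plus strand. Tssk6 (ENSRNOG00000020599), of 1302 bp in a single exon, spans 21273387 to 21274688 of chromosome 16, minus strand, 622 bp from Ndufa13, a subunit of respiratory complex I.

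By Pearson's r, Tssk3 and Tssk6 varied most like late spermatid genes, and Tssk4 like round spermatid genes. By ranks this held for Tssk3 only. A list score is the mean deviation of its tested genes per library on the log2 scale. The score of 18 late spermatid genes, such as protamines and tail sheath genes, had r = 0.84 with Tssk6, 0.81 with Tssk3, 0.53 with Tssk2 and 0.29 with Tssk1b over the 10 libraries. Tssk6 also had r = 0.84 with the list of partners and substrates described below, 0.67 with the spermatogonial and 0.50 with the spermatocyte list. With the 5 somatic lists its r was negative, from -0.34 for peritubular to -0.73 for endothelial genes (Spearman's rho -0.44 and -0.78). Spearman's rho with the late spermatid list was 0.68 for Tssk3 and 0.66 for Tssk6. For Tssk6 it was 0.84 with the partner list and 0.68 with the spermatocyte list. The late spermatid score was highest in young replicates 5 and 1, at 0.35 and 0.15. These were also the 2 highest libraries for Tssk6 and for Prm1, a protamine that packs sperm DNA. Aged replicate 4, the next highest library for Tssk6, had a late spermatid score of -0.01. For the round spermatid list r was 0.42 with Tssk1b and 0.35 with Tssk2. Tssk4 had r = 0.72 with the round spermatid list and -0.69 with the spermatocyte list. Spearman's rho of Tssk4 was 0.53 with the round spermatid and -0.77 with the spermatocyte list. With the peritubular, Leydig and macrophage lists it was 0.64, 0.61 and 0.58. Young replicate 1, the lowest library for Tssk4, had the lowest round spermatid score (-0.34) and the highest spermatocyte score (0.22). A single round spermatid gene, Spag4, stood at 3.23 FPKM in aged replicate 1 and 3.99 FPKM in young replicate 1. Without it, a choice made after the values were seen, the round spermatid score of young replicate 1 was -0.16, still the lowest. The score then had r = 0.86 and Spearman's rho 0.54 with Tssk4. The part of these stage differences in the kinase levels was not tested.

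The genes whose pattern over the 10 libraries was most like each kinase were sought among 5535 protein-coding genes averaging 10 FPKM or more. For Tssk1b they were Actl7a, an actin-like protein of the sperm head (r = 0.99), and Prss55, a serine protease of the testis (r = 0.97). Actl7a stood at 256 to 305 FPKM in aged and 240.5 to 305 FPKM in young libraries. For Tssk2 they were Spata24 (r = 0.97) and Ghitm (r = 0.96), and for Tssk3 Dnajb3 (r = 0.97), a DnaJ co-chaperone, and Plekho1 (r = 0.96). Tssk4 was most like Btbd16 (r = 0.99) and Tekt2 (r = 0.98), a tektin of the flagellum, which stood at 443 to 500.4 FPKM in aged and 364 to 459 FPKM in young libraries. Tssk6 was most like Anapc5 and Saraf (r = 0.96 each). These are the highest of many coefficients over 10 points and are given as descriptions.

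No partner or substrate of the kinases passed the test. The list of 16 genes also holds Tssk5, a kinase of the same name. All 16 were tested with limma and 0 passed, against 0.0% of all genes tested. An unadjusted limma p was under 0.05 for 2, 1 higher and 1 lower in aged libraries, a share close to the 11.9% over all genes tested. Their median log2 difference was -0.03. Tsks, the substrate of Tssk1 and Tssk2, averaged 608 ± 20.2 FPKM in aged and 621 ± 76.1 FPKM in young libraries (SD, n = 5 each), a log2 difference of -0.02 (SE 0.07, limma adjusted p = 0.904). Tsacc, a co-chaperone that activates Tssk6, averaged 589 ± 52.9 FPKM in aged and 603 ± 52.2 FPKM in young libraries, a log2 difference of -0.04 (limma adjusted p = 0.847). Tssk5, which the files annotate as a further kinase of this name, was far lower, at 35.4 ± 3.57 FPKM in aged and 36.8 ± 5.00 FPKM in young libraries (limma adjusted p = 0.851).

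The 2 genes of this list with an unadjusted limma p under 0.05 were chaperones of the Hsp90 family. Hsp90ab1, the constitutive cytosolic form, averaged 58.4 ± 4.84 FPKM in aged and 52.7 ± 2.48 FPKM in young libraries (log2 difference 0.15, limma adjusted p = 0.392). Hsp90b1, the form of the endoplasmic reticulum, averaged 135 ± 6.56 FPKM in aged and 151 ± 16.3 FPKM in young libraries (log2 difference -0.16, limma adjusted p = 0.419). Hsp90aa1, also listed, averaged 4.52 ± 1.51 FPKM in aged and 4.17 ± 1.13 FPKM in young libraries (log2 difference 0.08, limma adjusted p = 0.884). The most abundant partners were Odf2, the outer dense fibre protein, with 1244 ± 45.4 FPKM in aged and 1305 ± 119 FPKM in young libraries, and Hspa2, a germ cell Hsp70, with 1216 ± 73.0 FPKM in aged and 1198 ± 37.6 FPKM in young libraries (SD, n = 5 each).

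Among 19 tested genes of a second list, other kinases and kinase subunits of spermatids and sperm, 0 passed, against 0.0% of all genes tested. An unadjusted limma p was under 0.05 for 1 gene, against 11.9% of all genes tested, so the list as a whole does not stand out. The gene was Camk4, a calmodulin-dependent kinase of spermatids. It stood at 228, 211, 223, 188 and 234 FPKM in aged replicates 1 to 5, and at 161, 191, 183, 186 and 196 FPKM in young replicates 1 to 5. As for Tssk4, 4 of 5 aged libraries lay above the highest young one and aged replicate 4 did not. This is not particular to these genes, as others of the 2 lists also had 4 aged libraries above the young maximum. The share of all genes with this pattern was not counted. Camk4 averaged 217 ± 18.2 FPKM in aged and 183 ± 13.5 FPKM in young libraries (SD, n = 5 each), a log2 difference of 0.24 (limma adjusted p = 0.319). The most abundant genes of the list were Gsg2, the haspin kinase, with 330.1 ± 8.45 FPKM in aged and 338 ± 13.0 FPKM in young libraries, Prkar1a and Stk33. Prkar1a, a regulatory subunit of protein kinase A, averaged 223 ± 12.5 FPKM in aged and 213 ± 6.74 FPKM in young libraries. Stk33, a serine/threonine kinase, averaged 209.6 ± 9.35 FPKM in aged and 213 ± 8.18 FPKM in young libraries (SD, n = 5 each). In this list, Gsg2 alone had a higher mean than Tssk1b and Tssk6. Groups did not overlap for 0 of the 19 tested genes of this list, against 2.6% of all genes tested. Of the 22 in the files, Sbk3 alone had groups that did not overlap, but it lay below the filter and was not tested. Sbk3 stood at 0.841 to 1.52 FPKM in aged and 0.200 to 0.608 FPKM in young libraries. This came from 15 to 29 fragments in aged and 3 to 11 fragments in young libraries. The 2.6% does not cover genes below the filter.

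**Figure D4:**
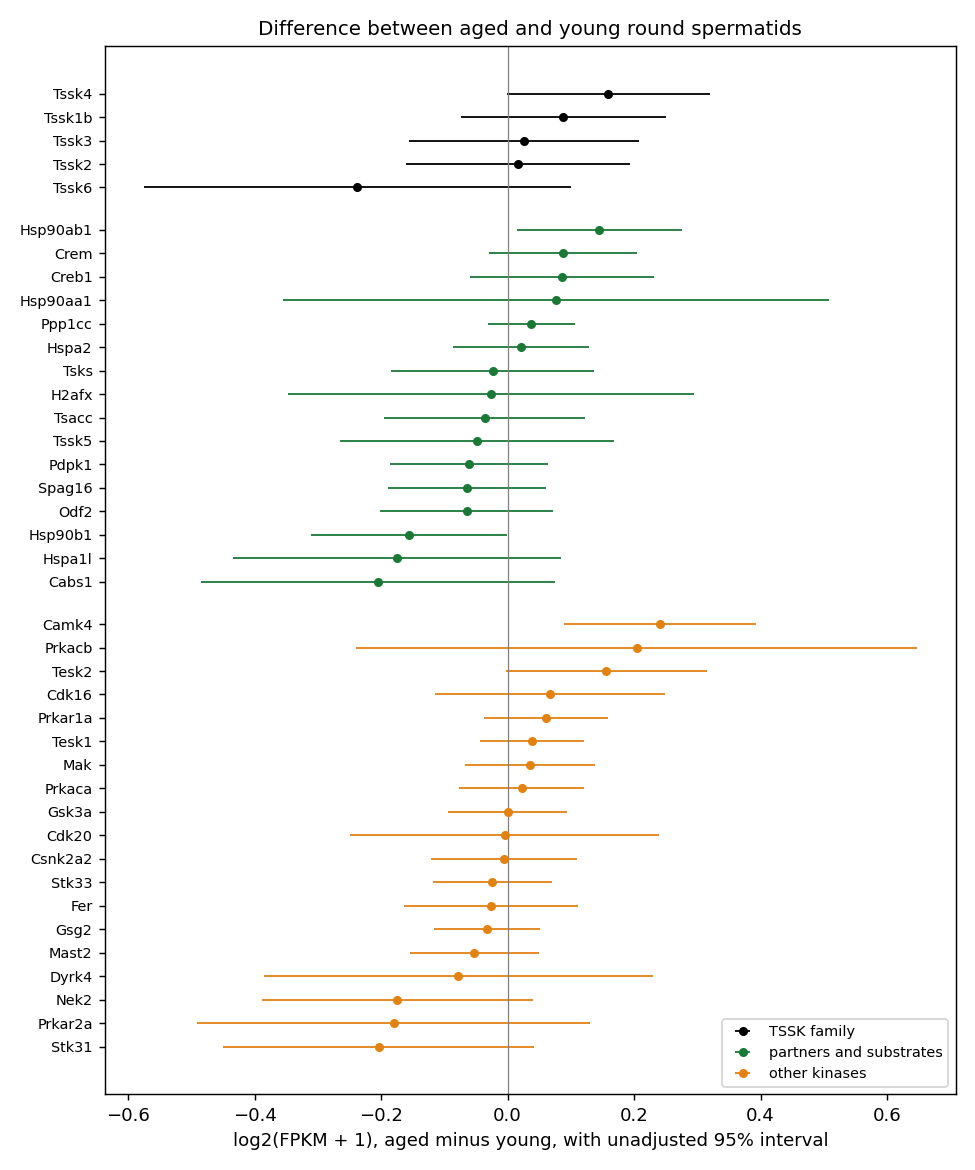
Difference in log2(FPKM + 1), aged minus young, with unadjusted 95% intervals from limma, for the 5 kinases, the 16 genes of the partner and substrate list (Tssk5 included) and 19 other kinases or subunits. The intervals of the 5 kinases include 0, from -0.24 for Tssk6 to 0.16 for Tssk4, and Camk4 lies highest at 0.24.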

How the data were processed

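Round spermatid RNA was measured in 5 aged and 5 young samples, grouped by the labels. The authors deposited FPKM values, 1 file per sample, per the file headers. Alignment software (HISAT2 2.0.5) and counting software (featureCounts 1.5.0-p3) are named in the submitters' processing notes; for settings, strand and genome build the sources used here say nothing. Whole fragments were recovered from FPKM, gene length and the smallest step of each sample; 100% of values above 0 came out whole within 0.001.

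Ages were compared with limma 3.58.1 (R 4.3.3; trend, two-sided) on log2(FPKM + 1) over the 12985 genes averaging 1 FPKM or more, adjusted over all of them; the scale understates changes of low genes. Single values were compared by exact permutation. Since FPKM are not counts, voom on the recovered fragments was an alternative only. The members and lists were chosen with earlier results of these data known. All members were named; partners and kinases were named when their unadjusted p was under 0.05, the groups did not overlap or they were among the 3 most abundant of their list, and Tsks, Tsacc and Tssk5 always. Of the listed symbols, H2ax was matched as H2afx. The labels name no batch. Alternatives were another pseudocount, 2 filters, 2 scalings, voom, a replicate block and leaving out samples.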

Additional observations from a re-analysis of the deposited data

Results flagged for a closer look

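In 18 groups of 5 libraries, covering the 5 kinases, the Tssk1b to Tssk2 ratio, Tsks, Tsacc and Tssk5, 3 held a library far from the others by Dixon's criterion at its 95% level; chance gives about 1 in 20. Tssk6 reached 360.0 FPKM in aged replicate 4, while the remaining aged libraries held 233 to 269.8 FPKM. Tssk4 stood at 102 FPKM in young replicate 1, against 130.1 to 136 FPKM in the other young libraries. Tssk2 reached 310.5 FPKM in young replicate 5, while the remaining young libraries held 233 to 248 FPKM.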

How the results depend on the processing

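In 19 alternatives, 0 of 5 kinases passed, with adjusted p of 0.236 to 0.840 for Tssk1b, 0.407 to 0.993 for Tssk2, 0.362 to 0.998 for Tssk3, 0.271 to 0.702 for Tssk4 and 0.362 to 0.965 for Tssk6. Over all genes 0 passed, except 1 gene each without young replicate 1, without young replicate 2, and without both young replicates 1 and 5 (the last chosen after seeing the data). Leaving out 1 library gave log2 differences of 0.05 to 0.15 for Tssk1b, 0.09 to 0.19 for Tssk4 and -0.34 to -0.12 for Tssk6. Tssk2 ranged from -0.021 to 0.091, falling below 0 without young replicate 1 or 4 or aged replicate 5. Tssk3 ranged from -0.0063 to 0.10, falling below 0 without young replicate 2, 3 or 4. Of the 5 kinases, Tssk4 alone passed 0.05 by the exact permutation test of the single gene, at 0.16 (p = 0.0238). The Tssk1b to Tssk2 log2 ratio ranged from 0.057 to 0.094 without single libraries, and passed 0.05 without aged replicate 4 (0.094, exact permutation p = 0.0079). Over all genes tested, same-numbered libraries did not deviate together (correlations of -0.16 to 0.05, and 0 of 5 over 0.1). These correlations alone cannot settle whether the numbers pair samples. Spag4 was lowest in both replicate 1 libraries, at 3.23 FPKM in aged and 3.99 FPKM in young. With the replicate block the SE went from 0.074 to 0.052 for Tssk1b and from 0.081 to 0.053 for Tssk2. The limma adjusted p was then 0.567 for Tssk1b and 0.917 for Tssk2. With that block 0 genes and 0 kinases passed, and the difference of Tssk4 is 0.16 by construction (limma adjusted p = 0.521). An unadjusted limma p was under 0.05 for Tssk4 with TPM scaling (0.0312), with voom (0.0288) and without young replicate 4, young replicate 5 or aged replicate 4, for Tssk1b without young replicate 5 (0.0221), for Tssk6 without aged replicate 4 (0.0374), and for Tssk3 without both young replicates 1 and 5 (0.0115).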
